A study of Homo sapiens with 66 samples.

Results

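The 7 genes described here encode chemokines: CXCL10 and CXCL11 of the CXC family, and CCL2, CCL3, CCL4, CCL5 and CCL8 of the CC family. They were chosen by name. A list of gene names gave their Ensembl identifiers, which were looked up, with the version removed, in the counts of both studies. Of the identifiers in the counts, 55538 had a name in that list. A matched row was found for 4 of the 7 among 57820 features: CXCL10 (ENSG00000169245.4), CXCL11 (ENSG00000169248.8), CCL2 (ENSG00000108691.5) and CCL8 (ENSG00000108700.4). The names CCL3, CCL4 and CCL5 met no identifier by this lookup, which does not show that the counts lack these genes. Gene counts of CCL3, CCL4 and CCL5 were not analysed here, and these 3 genes are described by intron reads instead.

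RNA was sequenced from THP-1, a human monocytic leukaemia cell line, in clones that carry a Cas9 transgene and received synthetic guide RNAs (gRNAs). The first study used 1 STING-deficient clone, in which gRNAs against ADAR (ADAR), hnRNPC (hnRNPC), both (ADAR+hnRNPC), GFP (GFP) or the nontarget gRNA NC1 (CTRL) were delivered and total RNA was taken on days 3, 4 and 5, with 3 libraries in each of 15 groups. A further 3 libraries came from CTRL cells kept with IFN-alpha for the last day before day 4, which gives 48 libraries in 16 groups. The second study used 1 WT clone and other gRNAs, all on day 4, with 2 libraries in each of 9 groups, 18 libraries in all. These were total and cytosolic RNA of CTRL, ADAR, hnRNPC and ADAR+hnRNPC cells, and an hnRNPC fraction enriched in nuclei and mitochondria. Groups with a single target also received NC1, so that every group got the same number of guides. All groups of a study thus shared the clone, the transgene and the gRNA delivery, and a result may be particular to that clone.

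Chemokines are small secreted proteins that attract leukocytes along a gradient by binding G protein-coupled receptors. CXCL10 and CXCL11 bind CXCR3, found above all on activated T cells and NK cells, and are classic interferon-stimulated genes. CCL2 draws monocytes through CCR2, CCL8 is a near relative of CCL2, and CCL3 and CCL5 act through CCR1 among other receptors. In monocytes these genes are switched on from a low resting level, and IRF, STAT and NF-kB factors are the transcription factors best known for doing so. In bulk RNA, more cells that express a gene and more RNA per cell cannot be told apart. ADAR edits adenosines in double-stranded RNA, hnRNPC is a nuclear RNA-binding protein that restrains the inclusion of Alu elements in mRNA, and IFN-alpha is a type I interferon.

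The proximal promoters of 3 measured members are shown because the RNA of these genes rose from near 0 and because the best-known inputs bind in this region. RefSeq windows on GRCh38.p14 matched 4 of 7 members (CXCL10, CXCL11, CCL3 and CCL8; CCL2, CCL4 and CCL5 had none), and the 250 bases before the start are printed 5′ to 3′ on the gene's strand. Capitals mark the letters GAAANNGAAA, a core of the interferon-stimulated response element (ISRE), or GGGNNNNNCC, a loose NF-kB (kB-like) pattern, on either strand. The CXCL10 window lies at chr4:76023498-76023747 on the minus strand, the CXCL11 window at chr4:76036071-76036320 on the minus strand and the CCL8 window at chr17:34319185-34319434 on the plus strand.
CXCL10: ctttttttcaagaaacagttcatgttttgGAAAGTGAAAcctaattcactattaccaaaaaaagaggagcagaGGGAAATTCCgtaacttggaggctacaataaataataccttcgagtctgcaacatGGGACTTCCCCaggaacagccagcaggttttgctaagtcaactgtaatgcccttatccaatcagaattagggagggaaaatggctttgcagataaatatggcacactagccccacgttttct
CXCL11: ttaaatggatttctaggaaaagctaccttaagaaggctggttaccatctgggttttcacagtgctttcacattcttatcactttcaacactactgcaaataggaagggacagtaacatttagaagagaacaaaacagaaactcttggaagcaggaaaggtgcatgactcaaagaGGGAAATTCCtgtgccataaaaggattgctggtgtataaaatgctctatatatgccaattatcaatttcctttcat
CCL8: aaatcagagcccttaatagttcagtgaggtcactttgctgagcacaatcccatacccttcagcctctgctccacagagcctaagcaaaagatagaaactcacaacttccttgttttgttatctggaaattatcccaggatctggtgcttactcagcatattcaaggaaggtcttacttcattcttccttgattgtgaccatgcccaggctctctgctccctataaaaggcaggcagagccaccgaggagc

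The CXCL10 window held GAAAGTGAAA from -221 to -212 relative to the start, which matches GAAANNGAAA, and the same pattern was found in 3.02% of 35116 RefSeq windows of this length. CXCL10 and CXCL11 both held GGGAAATTCC, at -177 to -168 and at -76 to -67. These 10 letters, picked out after they were seen, were in 0.148% of the windows, whereas the looser GGGNNNNNCC was in 54.4%. CXCL10 held further kB-like letters, overlapping on the 2 strands, between -122 and -112. TTCNNNGAA, the letters of a STAT site (GAS), were found at -240 in CXCL11 and at -91 in CCL8, and in 6.57% of windows. TATAAA was found at -42 in CXCL11 and at -30 in CCL8, and in 10.7% of windows. The CCL8 window held neither of the patterns marked in capitals. A match describes letters in a window and is not a measured binding site.

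Libraries held 95.1 to 153 M (1e6) gene-assigned reads in the first study and 49.7 to 73.9 M in the second, so that 1 CPM (1 count in 1e6, scaled by TMM) stood for at least 97.4 and 55.7 reads. HNRNPC RNA was 832 ± 31.5 CPM (SD, n = 3) in CTRL and 317 ± 5.77 CPM in hnRNPC cells on day 5. ADAR RNA was 394 ± 26.4 CPM in CTRL and 386 ± 12 CPM in ADAR cells on day 5, so that the RNA level gives no check of the ADAR label in the first study. In the second study it was 864 CPM in CTRL and 506 CPM in ADAR total RNA. The summed CPM of 9 monocyte markers was 674 to 1270 in the first study and 273 to 938 in the second. Within that sum, CD14 was 0.0991 to 3.93 CPM, MPO 3.84 to 11.0 CPM and PTPRC 357 to 506 CPM in the first study. Over both studies, 4 T cell markers summed to at most 0.169, 3 B cell markers to at most 6.46 and 4 NK cell markers to at most 13.3. The highest sums were 0.925 for 3 erythroid, 0.885 for 4 epithelial, 2.46 for 4 fibroblast and 1.60 for 2 endothelial markers. Replicates are libraries of a group that the study describes as independent experiments.

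CXCL10, at chr4:76942271-76944650 on the minus strand of GRCh37, was close to the detection limit in CTRL cells and reached at least 345 CPM on day 5 after ADAR+hnRNPC targeting. On day 5 the CTRL libraries held 0, 0.113 and 0.0952 CPM, the hnRNPC libraries 0.119, 0.0718 and 0.119 CPM, the ADAR libraries 2.5, 1.46 and 1.74 CPM, and the ADAR+hnRNPC libraries 345, 387 and 744 CPM. The ADAR and ADAR+hnRNPC libraries all lay above every CTRL library, whereas the hnRNPC libraries overlapped them. The ADAR+hnRNPC level went from 0.141 ± 0.0230 CPM on day 3 (SD, n = 3) to 8.50 ± 3.05 CPM on day 4 and 492 ± 219 CPM on day 5, a ratio of means of 60.1 for the first step and 57.9 for the second. In ADAR cells the means were 0.0631, 0.368 and 1.90 CPM, with ratios of 5.84 and 5.15.

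Tested with edgeR across 13187 genes, CXCL10 rose in ADAR+hnRNPC over CTRL on day 5 by a log2 fold change of 12.72 ± 0.44 (SE, adjusted p = 1.2e-24) and on day 4 by 8.87 ± 0.55 (adjusted p = 3.1e-16). ADAR alone raised it by 4.34 ± 0.91 on day 4 (adjusted p = 0.014) and 4.71 ± 0.51 on day 5 (adjusted p = 5.5e-08). For a call, the adjusted p had to be 0.05 or lower and the log2 fold change 1 or more in size. After hnRNPC targeting the difference on day 5 was 0.51 ± 0.85 (adjusted p = 0.62). On day 4 it was 1.78 ± 1.33, from 27 reads against 7 in CTRL. That difference was called only by edgeR without a filter on low values (adjusted p = 0.0076). On day 3 the value after ADAR+hnRNPC was 3.17 ± 1.24 (adjusted p = 0.051, and 0.030 with the replicate number as a block), and without replicate 1 of CTRL, which held all 5 CTRL reads, it was 7.12 (adjusted p = 0.036). DESeq2, limma-voom and a fit of only the groups compared also called it (adjusted p = 0.0051, 0.022 and 0.030). So did edgeR without a filter on low values (adjusted p = 1.4e-08). Other alternatives reached an adjusted p of up to 0.155. The day 4 call for ADAR rests on 7 CXCL10 reads in 3 CTRL libraries. It was lost without any 1 of these 3 libraries or without replicate 2 of ADAR (adjusted p = 0.065 to 0.15), with limma-voom (adjusted p = 0.059), and when the fit held only the groups compared (adjusted p = 0.159).

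CXCL11, the neighbour of CXCL10 at chr4:76954835-76962568 on the same strand and the ligand with the higher affinity for CXCR3, followed the same order at a lower level. The CTRL libraries of days 3 and 4 held 0 reads, and those of day 5 held 0.0313, 0.0142 and 0.0680 CPM. On day 5 the ADAR libraries held 0.579, 0.555 and 0.375 CPM and the ADAR+hnRNPC libraries 50.7, 57.9 and 99.4 CPM, all above CTRL, whereas the 3 hnRNPC libraries, with 0.00701 to 0.0522 CPM, overlapped CTRL. The ADAR+hnRNPC means were 0.0675, 2.11 and 69.3 CPM on days 3, 4 and 5, with ratios of 31.2 and 32.9 from day to day.

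CXCL11 rose in ADAR+hnRNPC by 10.78 ± 0.56 on the log2 scale on day 5 (adjusted p = 1.5e-17), and in ADAR cells by 3.68 ± 0.63 (adjusted p = 0.00046). On days 3 and 4 the fold over CTRL has no upper limit because the CTRL libraries held no read. Against a floor of 3 reads over the CTRL group, CXCL11 was at least 7.65-fold higher after ADAR+hnRNPC on day 3, at least 286-fold higher on day 4, and at least 25.5-fold higher after ADAR alone on day 4, and all 3 differences passed the test (adjusted p = 0.024, 2.5e-11 and 0.013). The first rests on 25 reads and was lost without any 1 CTRL library or replicate 1 of ADAR+hnRNPC (adjusted p = 0.060 to 0.11). The last rests on 66 reads and was lost without replicate 2 of CTRL or of ADAR (adjusted p = 0.092 and 0.087). In a fit of only the groups compared, neither call passed (adjusted p = 0.087 for the first and 0.159 for the last).

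CCL2, which draws monocytes and lies on the plus strand of chr17:32582293-32584227, had another order: hnRNPC targeting alone raised it, and ADAR targeting alone did not pass the test. On day 5 the CTRL libraries held 0.242, 0.0779 and 0.184 CPM, the ADAR libraries 0.244, 0.347 and 0.165 CPM, the hnRNPC libraries 1.56, 1.51 and 3.01 CPM, and the ADAR+hnRNPC libraries 19.2, 20.4 and 33.5 CPM. The hnRNPC libraries all lay above CTRL and ADAR and all below ADAR+hnRNPC. The hnRNPC mean went from 0.177 CPM on day 3 to 0.434 CPM on day 4 and 2.03 CPM on day 5, and the ADAR+hnRNPC mean from 0.184 to 1.25 and 24.4 CPM.

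CCL2 rose in hnRNPC cells by 2.17 ± 0.44 on day 4 (adjusted p = 7.9e-05) and 3.60 ± 0.38 on day 5 (adjusted p = 1.9e-10) on the log2 scale. In ADAR+hnRNPC cells it rose by 3.70 ± 0.41 on day 4 (adjusted p = 1.4e-09) and 7.19 ± 0.41 on day 5 (adjusted p = 3.2e-18). ADAR alone gave 0.92 ± 0.50 on day 4 (adjusted p = 0.44) and 0.59 ± 0.44 on day 5 (adjusted p = 0.41). On day 3 no group had a CCL2 call.

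CCL8, a CC chemokine whose gene lies on the same chromosome as CCL2 at chr17:32646454-32648421 on the plus strand, held more than 10 reads only in libraries of ADAR+hnRNPC. The 3 CTRL libraries of day 5 held 0 reads, the hnRNPC libraries 1, 9 and 10 reads, the ADAR libraries 6 reads in all, and the ADAR+hnRNPC libraries 354, 462 and 1077 reads, or 3.09, 3.69 and 8.16 CPM. On day 4 the ADAR+hnRNPC libraries held 5, 17 and 7 reads and the CTRL libraries 3 reads in all. Its average level did not pass the filter on low values, an average log2 CPM of at least 0.5, and CCL8 was tested with edgeR's filterByExpr, across 28095 genes, and, with the same calls, without a filter. With that filter it rose in ADAR+hnRNPC over CTRL on day 5 (adjusted p = 1.3e-09), where it was at least 707-fold higher, and on day 4 (adjusted p = 0.023), where the ratio was 10.6 with a 95% counting interval of 3.30 to 54.5. In hnRNPC cells of day 5 it was at least 6.32-fold higher than CTRL (adjusted p = 0.010).

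**Figure D1:**
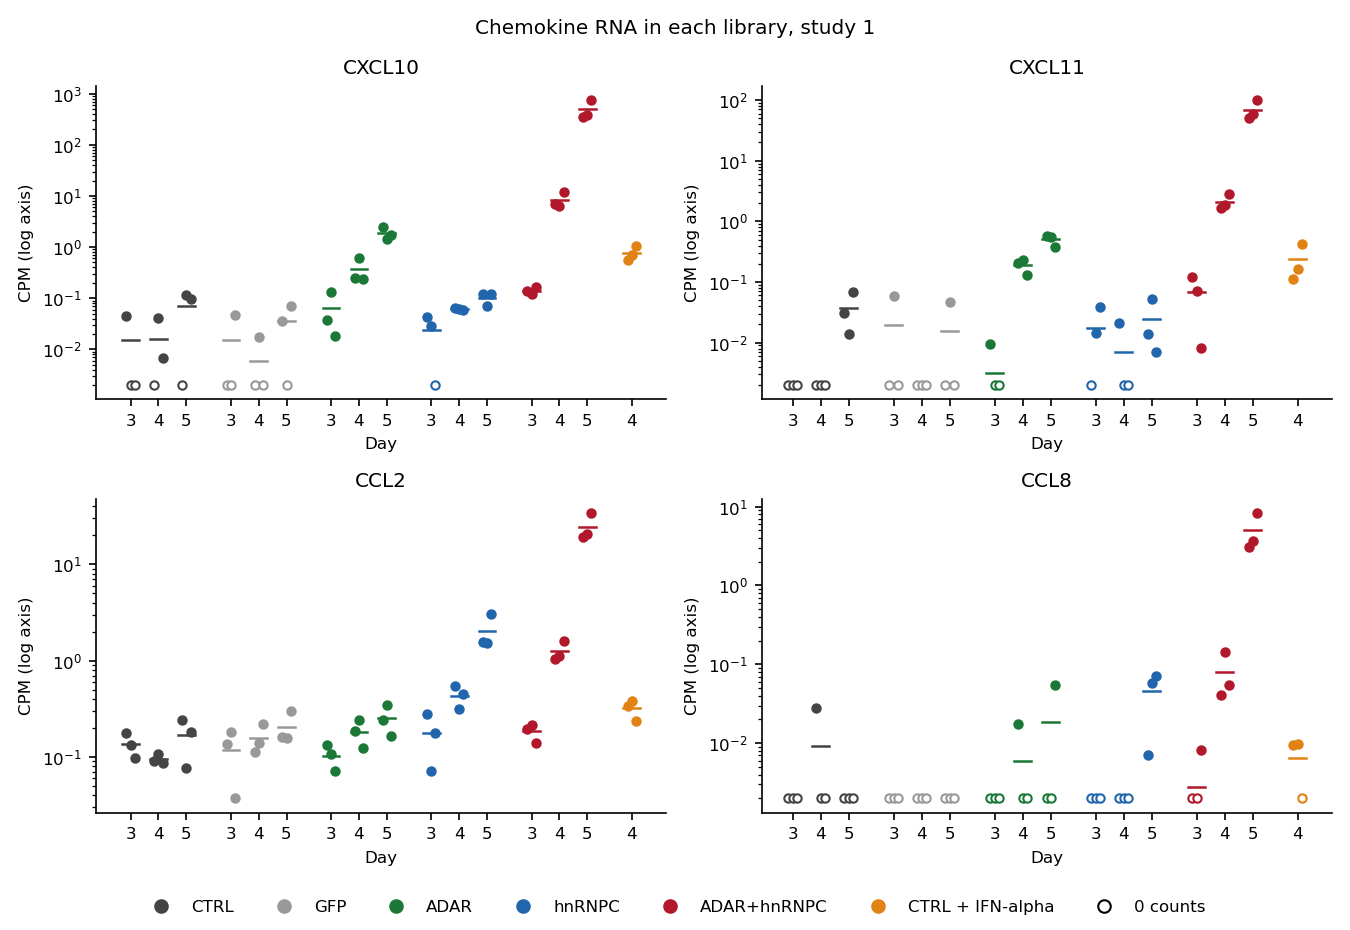
Level of CXCL10, CXCL11, CCL2 and CCL8 in each library of the first study, in CPM on a log axis, by gRNA group and day, with the mean as a line and libraries without a read drawn at the foot. The ADAR+hnRNPC libraries of day 5 sit highest in each panel (345 to 744 CPM for CXCL10), hnRNPC stands above CTRL for CCL2, and ADAR stands above CTRL for CXCL10 and CXCL11.

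Read against the background, the 3 members tested were called higher in ADAR+hnRNPC on day 5 where 9.38% of all genes were, and in 3 of 3 on day 4 where 3.4% were. On day 3 it was 1 of 3 (CXCL11), with 0.864% of all genes, though the calls of CXCL10 and CXCL11 on that day changed between settings. In ADAR cells 2 of 3 were called higher on days 4 and 5, with 0.0682% and 0.273% of all genes, and none on day 3, when edgeR, DESeq2 and limma-voom each called 0% of genes higher and no member had an unadjusted p of at most 0.05. In hnRNPC cells 1 of 3, CCL2, was called higher on days 4 and 5, with 1.58% and 3.96% of all genes, and none on day 3, with 0.554%. With filterByExpr, the background was 13.3% for ADAR+hnRNPC on day 5, 6.32% on day 4 and 7.05% for hnRNPC on day 5. Groups without overlap, higher than CTRL in all 3 libraries, were common: 36.3% of genes for ADAR+hnRNPC on day 5, 27.1% on day 4, 31.3% for hnRNPC on day 5 and 17% for ADAR on day 5. CXCL10, CXCL11 and CCL2 passed the filter only through the groups in which they were high, so that their share of calls lends no support beyond the values of each gene.

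GFP gRNAs, a second control, gave no member call against CTRL on any of the 3 days, while 0.0227%, 0% and 0.212% of all genes were called on days 3, 4 and 5, and DESeq2 called 1 gene on day 4. At an unadjusted p of at most 0.05 edgeR also gave 0 of 9 member values. On day 5 the GFP means were 0.0352 CPM for CXCL10, 0.0156 CPM for CXCL11, 0.206 CPM for CCL2 and 0 reads for CCL8.

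IFN-alpha raised CXCL10, CXCL11 and CCL2 in CTRL cells, to means below those of ADAR+hnRNPC on day 4. The CXCL10 mean was 0.765 CPM with IFN-alpha and 0.368 CPM in ADAR cells of day 4. For CCL2 it was 0.319 CPM with IFN-alpha, 0.183 CPM in ADAR and 0.434 CPM in hnRNPC cells of day 4. IFN-alpha was not tested against either single targeting. The IFN-alpha libraries held 0.567, 0.696 and 1.03 CPM of CXCL10, where the CTRL libraries of day 4 held 0, 0.0405 and 0.00668 CPM. They held 0.113, 0.167 and 0.431 CPM of CXCL11, with 0 reads in CTRL, and 0.340, 0.382 and 0.236 CPM of CCL2, with 0.0920, 0.108 and 0.0868 CPM in CTRL. No IFN-alpha library overlapped CTRL for these 3 genes, as was the case for 16.5% of all genes in the higher direction. The log2 fold change was 5.41 ± 0.78 for CXCL10 (adjusted p = 1.8e-06) and 1.72 ± 0.46 for CCL2 (adjusted p = 0.0076). CXCL11 was at least 33.6-fold higher (adjusted p = 0.00012). Among all genes 1.21% were called higher. CCL8 stayed at 2 reads in the 3 IFN-alpha libraries, against 3 in CTRL, which leaves any difference below what this depth can show.

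At the same day, ADAR+hnRNPC stood above IFN-alpha by 3.46 ± 0.32 on the log2 scale for CXCL10, 3.11 ± 0.43 for CXCL11 and 1.98 ± 0.36 for CCL2 (adjusted p = 7.9e-12, 2.5e-07 and 1.2e-05), while 3.75% of all genes were called higher. This compares cells treated for 1 day with cells targeted for 4, and the CTRL libraries do not enter it.

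ADAR+hnRNPC also stood above each single targeting. Over ADAR, it was higher on day 5 by 8.01 ± 0.33 for CXCL10, 7.11 ± 0.44 for CXCL11 and 6.60 ± 0.40 for CCL2 (adjusted p = 3.3e-22, 2.1e-15 and 2.6e-17), with 7.45% of all genes called higher. On day 4 the 3 genes were higher by 4.53 ± 0.35, 3.48 ± 0.45 and 2.77 ± 0.38, with 2.71% of genes called, and on day 3 CXCL11 alone was called, with 25 reads against 1, a ratio of 22.4 with a counting interval of 3.66 to 919 (adjusted p = 0.049, lost without replicate 1, 2 or 3 of ADAR or replicate 1 or 2 of ADAR+hnRNPC, at 0.074 to 0.21, with limma-voom at 0.062, with filterByExpr at 0.070 and with only the groups compared at 0.11), with 0.576% of genes. Over hnRNPC, it was higher on day 5 by 12.21 ± 0.43, 11.38 ± 0.58 and 3.59 ± 0.32, with 5.82% of genes, and on day 4 by 7.09 ± 0.45 for CXCL10 and 1.53 ± 0.34 for CCL2, with 1.2% of genes. CXCL11 held 781 reads against 3 there, a ratio of 309 with a counting interval of 105 to 1502 (adjusted p = 2.4e-10). On day 3 edgeR called none of the 3 over hnRNPC, with 0.0834% of genes, although the unadjusted p of CXCL10 was 0.023 and DESeq2 called it (2.5, adjusted p = 0.041).

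The interaction asks whether the log2 change after ADAR+hnRNPC exceeded the sum of both single changes. It did on day 5 for CXCL10 by 7.51 ± 1.41 (adjusted p = 0.00063), for CXCL11 by 7.71 ± 1.34 (adjusted p = 0.00035) and for CCL2 by 3.01 ± 0.61 (adjusted p = 0.0011). On day 5, 24.2% of all genes passed this test in the same direction. On day 4 the values were 2.74 ± 1.23 for CXCL10, 0.45 ± 0.84 for CXCL11 and 0.61 ± 0.47 for CCL2, and none passed with edgeR (adjusted p = 0.21, 0.80 and 0.49), with 3.2% of genes, although CXCL10 had an unadjusted p of 0.045 and passed with DESeq2 (adjusted p = 0.011). Without a filter on low values, CXCL10 passed with edgeR too (adjusted p = 0.019). The CXCL11 value of day 4 rests on CTRL libraries without a read, so its fit depends on the prior count. DESeq2 put 943 genes higher and 774 lower on day 4, where edgeR put 422 and 189. On day 3 no member and 0% of genes passed with edgeR, no member had an unadjusted p of at most 0.05, and DESeq2 passed 31 genes in this direction.

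**Figure D2:**
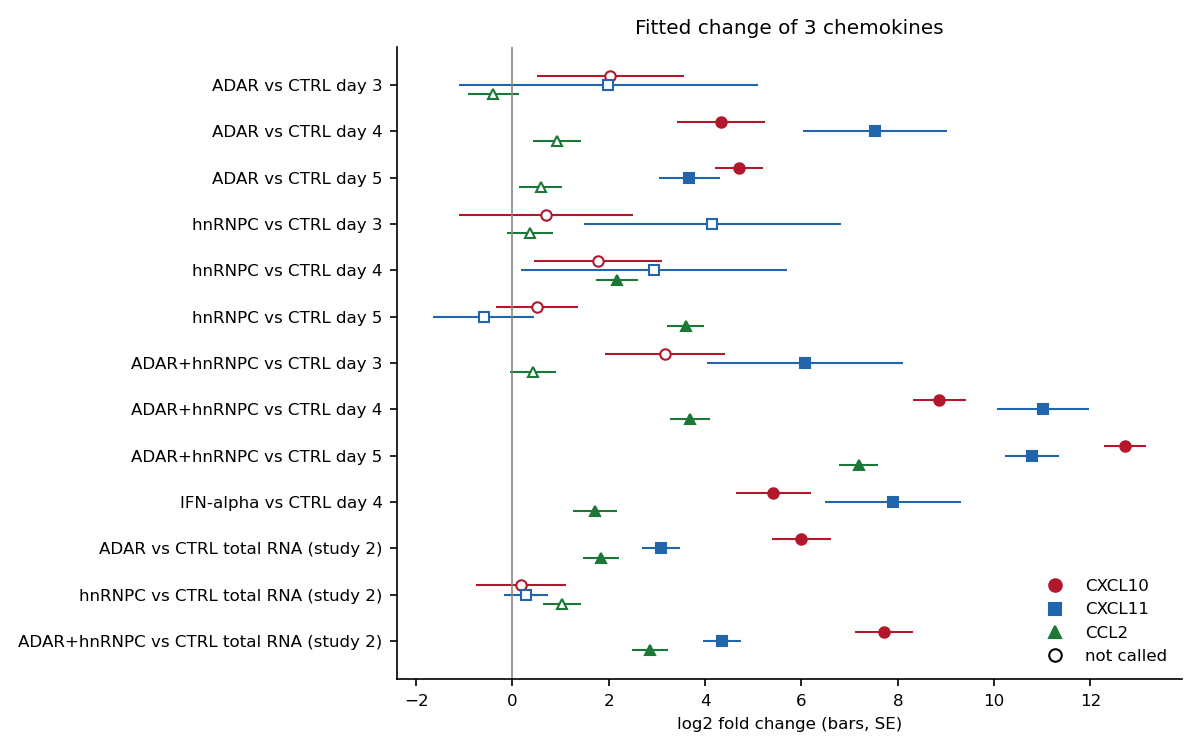
Log2 fold change of CXCL10, CXCL11 and CCL2 over CTRL in the first study and in total RNA of the second. Bars are the SE derived from edgeR's F statistic, and points are filled for calls and open for values not called. The ADAR+hnRNPC values of day 5 reach 12.72, 10.78 and 7.19, while hnRNPC alone is called for CCL2 and ADAR alone for CXCL10 and CXCL11 in the first study.

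Levels also moved with the day within a group. From day 3 to day 5, CTRL cells had no member call with edgeR (0.447% of genes higher), with 2.21 ± 1.42 for CXCL10 and 0.29 ± 0.48 for CCL2 on the log2 scale and an unadjusted p of 0.028 for CXCL11, which DESeq2 called (adjusted p = 0.014). ADAR cells rose by 4.88 ± 0.55 for CXCL10 (0.614% of genes), and for CXCL11, with 161 reads against 1, the ratio was 165 with a counting interval of 29.3 to 6574 (adjusted p = 1.4e-05). hnRNPC cells rose by 3.51 ± 0.38 for CCL2 (2.5% of genes), and ADAR+hnRNPC cells by 11.76 ± 0.42, 9.98 ± 0.53 and 7.04 ± 0.41 for CXCL10, CXCL11 and CCL2 (6.89%). DESeq2 also called CXCL10 in hnRNPC cells (2.09, adjusted p = 0.035) and CCL2 in ADAR cells (1.30, adjusted p = 0.028). Other alternatives reached an adjusted p of up to 0.28 and 0.27 for these. Set against CTRL on each day, the CCL2 response to hnRNPC was larger on day 5 than on day 3 by 3.22 ± 0.62 (adjusted p = 6.5e-05). The same test passed in this direction for 24.1% of all genes. The CCL2 response to ADAR+hnRNPC was larger by 6.75 ± 0.65 (adjusted p = 4.1e-11), where 26.5% of genes passed in this direction. For CXCL10 the ADAR+hnRNPC response was larger by 9.55 ± 3.17 (adjusted p = 0.010), a value that rests on 5 CTRL reads of day 3, all in replicate 1. Without that library CTRL held no read on day 3 and the value was 5.60 (SE 142, adjusted p = 0.98). For CXCL11, also without a CTRL read on day 3, edgeR gave 4.71 (SE 54.8) and no call. DESeq2 (5.49, adjusted p = 0.0056) and limma-voom (7.40, adjusted p = 4.8e-05) called it. The ADAR response did not differ between these days for any member at this threshold (CXCL10: 2.67 ± 2.26, adjusted p = 0.90), with 0.0834% of genes.

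Per kilobase of exon of the principal transcript, which allows levels of different genes to be compared, the order of the chemokines differed between groups. For CCL2 that transcript has 741 bases, while its exons cover 1935 bases in an annotation later than the one used for counting. The exon length over which its reads were counted was not checked, so the place of CCL2 in the order is uncertain. In CTRL cells of day 5 the order was CCL2 (0.227 CPM per kb), CXCL10 (0.0592), CXCL11 (0.0212) and CCL8 (0 reads), with CXCL10 and CXCL11 overlapping. In hnRNPC cells CCL2 (2.73 CPM per kb) stood apart from CXCL10, CCL8 and CXCL11, at 0.0879, 0.0525 and 0.0137 CPM per kb, which overlapped as neighbours. In ADAR cells CXCL10 led with 1.62 CPM per kb, followed by CCL2 (0.340) and CXCL11 (0.282), which overlapped. In ADAR+hnRNPC cells CXCL10 led with 419 ± 186 CPM per kb, CXCL11 (38.9 ± 14.7) and CCL2 (32.9 ± 10.7) overlapped, and CCL8 came last with 5.78 ± 3.22. With IFN-alpha, CXCL10 (0.651 CPM per kb) and CCL2 (0.431) overlapped and CXCL11 had 0.133.

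CXCL10 and CXCL11 lie side by side and rose together, though not in a fixed ratio. Per kilobase, CXCL10 exceeded CXCL11 by 10.1 to 11.3 times in the libraries of ADAR+hnRNPC on day 5 and by 5.26 to 6.48 times on day 4. In ADAR cells the ratio was 1.85 to 4.04 on day 4 and 3.98 to 7.02 on day 5, and with IFN-alpha, on day 4, it was 3.63 to 7.58. The ranges of ADAR+hnRNPC on days 4 and 5 did not overlap. In ADAR+hnRNPC on day 5 the library numbered 3 was the highest for 4 of 4 measured genes.

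The second study measured the same genes in the WT clone with other gRNAs, in total and cytosolic RNA of day 4. ADAR targeting alone raised CXCL10, CXCL11 and CCL2, and hnRNPC alone gave no member call. The tables of the studies were scaled separately, so levels are compared within each. In total RNA the CTRL libraries held 0.204 and 0.208 CPM of CXCL10, the hnRNPC libraries 0.371 and 0.0991 CPM, the ADAR libraries 16.7 and 9.90 CPM and the ADAR+hnRNPC libraries 60.2 and 27.3 CPM. Those of ADAR and ADAR+hnRNPC lay above every CTRL and hnRNPC library and did not overlap each other. For CXCL11 the libraries held 0.580 and 0.243 CPM in CTRL, 0.608 and 0.411 CPM in hnRNPC, 3.98 and 3.07 CPM in ADAR and 10.9 and 6.19 CPM in ADAR+hnRNPC. For CCL2 they held 0.188 and 0.642 CPM in CTRL, 0.786 and 0.878 CPM in hnRNPC, 1.30 and 1.65 CPM in ADAR and 3.64 and 2.30 CPM in ADAR+hnRNPC.

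Across 13637 genes, ADAR raised CXCL10 in total RNA by 6.0 ± 0.61 on the log2 scale (adjusted p = 9.6e-06), CXCL11 by 3.08 ± 0.39 (adjusted p = 0.00011) and CCL2 by 1.85 ± 0.38 (adjusted p = 0.0047), with 2.04% of genes called higher. ADAR+hnRNPC raised them by 7.72 ± 0.61 (adjusted p = 4.5e-07), 4.35 ± 0.39 (adjusted p = 1.6e-06) and 2.86 ± 0.37 (adjusted p = 4.4e-05), with 3.35% of genes. hnRNPC alone gave 0.17 ± 0.94, 0.28 ± 0.46 and 1.02 ± 0.39 (adjusted p = 0.93, 0.75 and 0.13), with 0.279% of genes. The CCL2 value after hnRNPC turns on 1 CTRL library: without replicate 2 of CTRL total RNA it was 2.13 (adjusted p = 0.019). Over ADAR, ADAR+hnRNPC was higher by 1.72 ± 0.40, 1.28 ± 0.32 and 1.01 ± 0.32 (adjusted p = 0.0062, 0.0083 and 0.023), with 1.68% of genes called. These 3 calls were lost without replicate 2 of ADAR or replicate 1 of ADAR+hnRNPC (adjusted p = 0.077 to 0.21), and that of CCL2 also without replicate 1 of ADAR (adjusted p = 0.13). The interaction was 1.54 ± 1.05 for CXCL10, 0.99 ± 0.56 for CXCL11 and -0.01 ± 0.43 for CCL2, and passed for none of the 3 (adjusted p = 0.28, 0.19 and 0.98), while it passed in 7.14% of genes in the higher direction. It passed for 973 genes in that direction and 2169 in the other, against 1727 and 1296 with DESeq2, and for 0 genes when only the groups compared were fitted. Without a filter on low values, edgeR passed the interaction for CXCL10 (adjusted p = 0.0059).

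In cytosolic RNA, CXCL10 was 0.390 and 0.126 CPM in CTRL, 29.6 and 16.2 CPM in ADAR, and 107 and 53.4 CPM in ADAR+hnRNPC, again without overlap. ADAR raised CXCL10, CXCL11 and CCL2 by 6.43 ± 0.59, 3.93 ± 0.41 and 2.10 ± 0.39 (adjusted p = 1.0e-06, 3.6e-06 and 0.00082), with 4.61% of genes called higher. ADAR+hnRNPC raised them by 8.24 ± 0.60, 5.23 ± 0.41 and 3.69 ± 0.37 (adjusted p = 5.3e-08, 1.1e-07 and 1.4e-06), with 6.65% of genes. hnRNPC gave no call, with 0.249% of genes higher, and CCL2 was at -0.11 ± 0.45. Over ADAR, ADAR+hnRNPC was called for CXCL10 (1.81 ± 0.39, adjusted p = 0.040) and CCL2 (1.59 ± 0.31, adjusted p = 0.026), with 0.169% of genes. Both were lost without any 1 of the 4 libraries compared (adjusted p = 0.078 to 0.52), and that of CXCL10 also with DESeq2 (adjusted p = 0.081). For CXCL11 the value was 1.30 ± 0.31 (adjusted p = 0.059). It passed with the replicate block, DESeq2, limma-voom and only the groups compared (adjusted p = 0.0077, 0.0023, 0.042 and 0.021). With edgeR and the filter on low values, no gene passed the interaction in cytosolic RNA (0%), and with DESeq2 11 did. The unadjusted p of the members in that edgeR fit were 0.038 for CXCL10, 0.062 for CXCL11 and 0.0070 for CCL2. Without a filter, edgeR passed the interaction for CXCL10 (2.37, adjusted p = 0.00013).

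CCL8 held 1 read in CTRL total RNA and 33 in ADAR+hnRNPC, a ratio of 33.8 with a counting interval of 5.65 to 1373. In cytosolic RNA it held 2 reads in CTRL, 16 in ADAR and 42 in ADAR+hnRNPC. Both ADAR+hnRNPC differences passed with filterByExpr (adjusted p = 0.012 in each), which called 4.07% of genes higher in total and 6.73% in cytosolic RNA. Without overlap and higher than CTRL were 31.2% of genes for ADAR and 22.4% for ADAR+hnRNPC in total RNA, and 34.4% for ADAR+hnRNPC in cytosolic RNA.

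Some total libraries of this study differed in the RNA of other compartments. MT-ND1, a mitochondrial mRNA, was 96.3 CPM in CTRL, 85.1 CPM in ADAR+hnRNPC, 38.3 CPM in hnRNPC and 34.0 CPM in ADAR, and MALAT1, a nuclear RNA, was 1935, 2018, 1142 and 871 CPM in the same order. The part of this in the total-RNA results was not tested. The cytosolic groups had MT-ND1 means of 1.45 to 2.15 CPM. They differed in other RNAs: MALAT1 was 803 CPM in CTRL, 527 CPM in ADAR and 400.1 CPM in ADAR+hnRNPC, and NEAT1, another nuclear RNA, 121, 60.2 and 45.7 CPM. The 9 monocyte markers summed to 315 to 323 CPM in cytosolic CTRL, 497 to 524 CPM in ADAR and 512 to 518 CPM in ADAR+hnRNPC, without overlap with CTRL. The part of these in the cytosolic results was not tested.

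**Figure D3:**
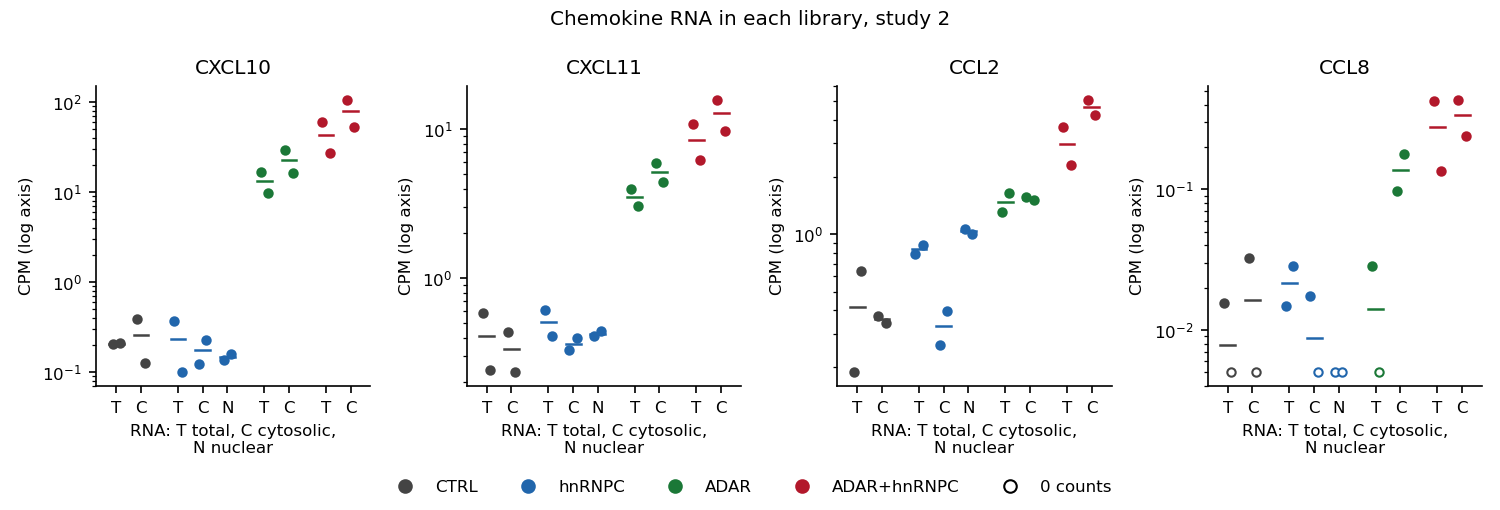
Level of CXCL10, CXCL11, CCL2 and CCL8 in each library of the second study, in CPM on a log axis, by gRNA group and RNA fraction (the nuclear one for hnRNPC alone), with the mean as a line and libraries without a read as open circles. ADAR and ADAR+hnRNPC stand above CTRL for CXCL10 in both fractions (9.90 to 107 CPM), and hnRNPC lies with CTRL.

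Cytosolic RNA was obtained with digitonin, a detergent that opens the plasma membrane. The mean cytosolic level of CXCL10 was 1.72 times the total level in ADAR and 1.83 times in ADAR+hnRNPC cells, that of CXCL11 1.48 and 1.5 times, and that of CCL2 1.04 and 1.57 times. ACTB, a cytoplasmic mRNA, was at 1.23 to 1.45 times over the 4 gRNA groups and MALAT1 at 0.198 to 0.717 times. None of CXCL10, CXCL11 and CCL2 differed between cytosolic and total RNA past the threshold in CTRL, ADAR or ADAR+hnRNPC cells, where 10.8%, 8.15% and 6.34% of genes did in either direction. CXCL10 and CCL2 had unadjusted p of 0.036 and 0.046 in ADAR+hnRNPC cells, and each of the 3 genes was called higher in cytosolic RNA there without replicate 1 of total RNA (adjusted p = 0.013 to 0.038). In hnRNPC cells CCL2 was lower in cytosolic RNA, at 0.261 and 0.396 CPM, than in total RNA (-1.32 ± 0.40, adjusted p = 0.012), where 11% of genes were lower. Against the fraction enriched in nuclei, which held 1.07 and 1.01 CPM, it was lower as well (-1.64 ± 0.40, adjusted p = 0.0015), where 14.9% of genes were. These CCL2 levels rest on 15 to 63 reads a library, and the first call was lost without replicate 2 of hnRNPC total RNA (adjusted p = 0.057) and without replicate 1 of hnRNPC cytosolic RNA (adjusted p = 0.094).

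The responses to gRNAs were not found to differ between the fractions for any of the 3 genes, while 1.72%, 0% and 4.56% of genes had different responses to ADAR, hnRNPC and ADAR+hnRNPC. For CCL2 the response to hnRNPC differed by -1.13 ± 0.60 (adjusted p = 0.90) and for CXCL10 the response to ADAR+hnRNPC by 0.52 ± 1.04 (adjusted p = 0.85).

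For CCL3, CCL4 and CCL5, reads in the introns of the first study were summed per gene, as RPM (reads in each 1e6 gene-assigned reads). Intron reads follow unspliced RNA or transcripts that keep an intron, and stand far below mRNA: in ADAR+hnRNPC cells of day 5, CXCL10 introns held 26.2 ± 10.1 RPM (SD, n = 3) and its exons were 20.7 times denser. No test was run on these sums. CCL3, a CCR1 ligand at chr17:34415602-34417515 on the minus strand, has 2 introns of 1108 bases. These held 10, 16 and 49 reads in CTRL, 12, 12 and 52 in ADAR, 89, 83 and 135 in hnRNPC and 159, 261 and 343 in ADAR+hnRNPC on day 5. Like CCL2 and unlike CXCL10, the hnRNPC libraries lay above those of CTRL and ADAR, at 0.723 ± 0.239 RPM against 0.172 ± 0.135 and 0.236 ± 0.212 RPM, and the ADAR+hnRNPC libraries lay highest at 2.17 ± 0.656 RPM. A further interval of 28 bases, counted with the introns, ends at the end of the gene and was left out after its values were seen. It held 359 of 1122 reads in ADAR+hnRNPC of day 5, where the mean with it was 3.20 RPM. The CTRL, ADAR and GFP groups of day 5 each had 1 library far above the rest, which was the one numbered 3. In GFP cells it held 73 reads against 7 and 3. At 0.713 RPM this control library lay within the hnRNPC range of 0.552 to 0.996 RPM, so hnRNPC overlapped GFP. The 3 IFN-alpha libraries held 81, 56 and 47 reads and the CTRL libraries of day 4 held 9, 3 and 0.

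CCL5, a ligand of CCR1 and CCR3 at chr17:34198495-34207797 on the minus strand, has 3 introns of 7873 bases. On day 5 these held 0.386 ± 0.0674 RPM in CTRL, 0.245 ± 0.0786 RPM in hnRNPC, 0.526 ± 0.0406 RPM in ADAR and 4.03 ± 1.61 RPM in ADAR+hnRNPC, where the libraries held 290, 420 and 713 reads. GFP cells of day 5 held 0.674 ± 0.323 RPM. The ADAR+hnRNPC mean was 10.4 times that of CTRL, and the hnRNPC libraries lay below those of CTRL. On day 4 the ADAR+hnRNPC mean was 0.509 RPM, within the range of the ADAR libraries of days 4 and 5. IFN-alpha gave 0.396 ± 0.0944 RPM against 0.320 ± 0.132 RPM in CTRL, which overlapped. CCL4, at chr17:34431220-34433014 on the plus strand, has 2 introns of 1128 bases, which held 5, 6 and 11 reads in ADAR+hnRNPC of day 5 and at most 3 in any other library. Among all introns with enough reads, 18.3% were higher without overlap in ADAR+hnRNPC than in CTRL on day 5, 17.6% in hnRNPC and 5.58% in ADAR. The library numbered 3 was highest in ADAR+hnRNPC of day 5 for 3 of 3 of these genes, as it was for the genes with counts.

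**Figure D4:**
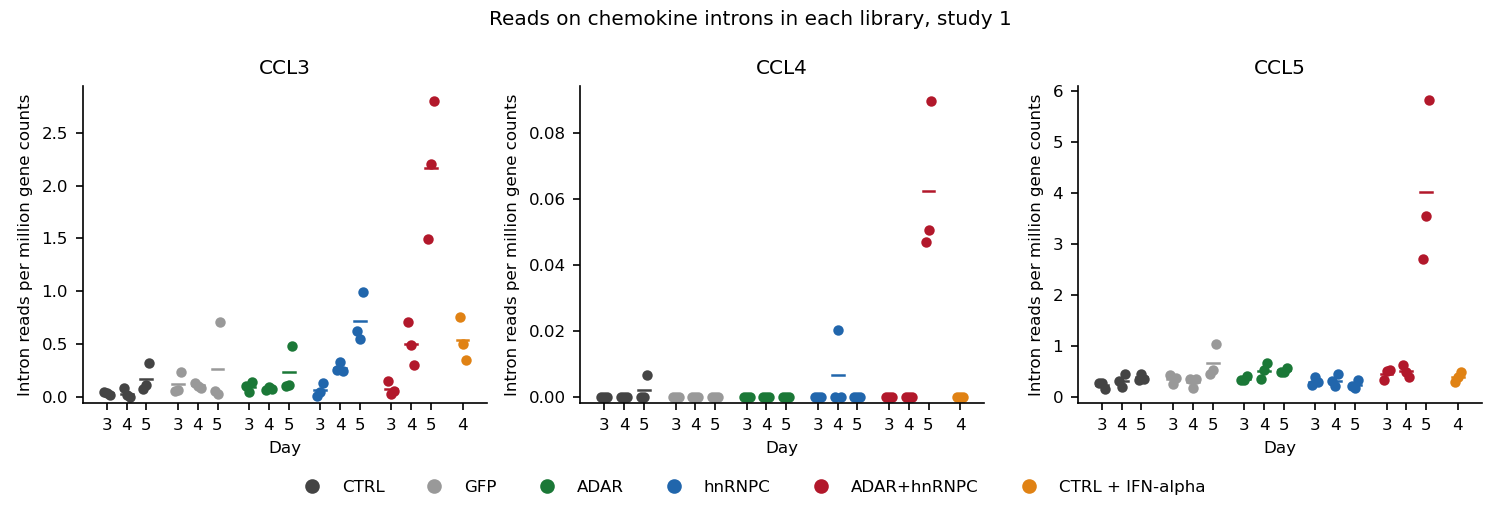
Intron reads of CCL3, CCL4 and CCL5 in each library of the first study, in RPM, by gRNA group and day, with the mean as a line. CCL3 introns are higher in hnRNPC (0.723 RPM) and ADAR+hnRNPC (2.17 RPM) than in CTRL (0.172 RPM) on day 5, whereas CCL5 introns are higher in ADAR+hnRNPC (4.03 RPM against 0.386 RPM).

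Near-identical copies of CCL3 and CCL4 lie in the same cluster, and reads that match more than 1 copy were not counted, so the values of this family are uncertain. The copy CCL3L1 held 6, 21 and 24 reads in CTRL, 82, 83 and 98 in hnRNPC and 133, 189 and 345 in ADAR+hnRNPC on day 5, without overlap between these groups. With filterByExpr it rose by 2.31 ± 0.65 on the log2 scale in hnRNPC (adjusted p = 0.0038) and by 3.86 ± 0.67 in ADAR+hnRNPC (adjusted p = 4.8e-06). With IFN-alpha it held 0, 6 and 8 reads, against 4, 10 and 19 in CTRL of day 4. CCL4L1 held 5, 2 and 10 reads and CCL4L2 held 5, 0 and 9 reads in ADAR+hnRNPC of day 5.

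ADAR is an RNA editor, and the deposited tables of A-to-I sites and of clusters of edited sites were searched within the 7 genes. None of 462418 sites with a readable position in the first study, of 310592 in the second, or of 2794 editing-cluster-rich regions with a readable position in each lay inside any of the 7 gene intervals. The paper describes keeping only sites with a minimum read coverage in a sample with intact ADAR. In CTRL cells of day 3, CXCL11 and CCL8 held 0 reads and CXCL10 held 5. With so few reads a site could hardly be listed, so the search does not show that these genes are unedited.

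The receptors of these chemokines were measured in the same cells, though 3 of 9 passed the filter on low values in the first study. CCR2, the receptor of CCL2, fell in ADAR+hnRNPC on day 5 by 1.33 on the log2 scale (SE 0.05, adjusted p = 1.0e-22), from 305 ± 7.51 to 121 ± 5.85 CPM, and in hnRNPC by 1.08 (adjusted p = 2.4e-19), to 144 ± 6.44 CPM. Among all genes 6.23% and 3.75% were called lower. CCR1, a receptor of CCL3 and CCL5, rose in ADAR+hnRNPC by 1.25 ± 0.08 (adjusted p = 4.2e-16), from 61.3 ± 2.82 to 146 ± 15.2 CPM. With IFN-alpha, CCR1 was at 113 ± 7.18 CPM and 0.92 ± 0.08 above CTRL on the log2 scale, short of the fold threshold (adjusted p = 2.7e-11), and CCR2 was at 320 ± 9.07 CPM and 0.01 ± 0.05 above it (adjusted p = 0.91).

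Receptors with low levels were tested with filterByExpr. ACKR3, a scavenger receptor that takes up CXCL11, was 0.172, 0.205 and 0.265 CPM in CTRL, 0.461, 0.555 and 0.494 CPM in ADAR and 2.86, 2.89 and 3.80 CPM in ADAR+hnRNPC on day 5. It rose by 1.22 ± 0.27 in ADAR (adjusted p = 0.0085) and 3.88 ± 0.28 in ADAR+hnRNPC (adjusted p = 9.8e-16), and with IFN-alpha the value was 0.20 ± 0.28 (adjusted p = 0.78). CXCR3, the receptor of CXCL10 and CXCL11, rose by 1.12 ± 0.25 in ADAR+hnRNPC, to 2.97 ± 0.865 CPM (adjusted p = 0.00022), and CCR3 by 1.5 ± 0.33, to 1.54 ± 0.310 CPM (adjusted p = 0.00019). In total RNA of the second study ACKR3 was called in ADAR+hnRNPC, with 3.55 ± 0.34 (adjusted p = 3.2e-06), and in ADAR, with 3.56 ± 0.34 (adjusted p = 5.6e-06).

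Among other chemokine genes most were too low to test. Of 15 other CXC, CX3C and XC ligands, CXCL8, a neutrophil attractant, passed the filter, and it rose in ADAR+hnRNPC on day 5 by 2.39 ± 0.20 (adjusted p = 3.6e-13), fell in hnRNPC by 1.02 (adjusted p = 4.6e-05) and was at 0.08 ± 0.20 with IFN-alpha (adjusted p = 0.83). Of 14 matched other CC ligands 2 were tested and neither was called in ADAR+hnRNPC. With filterByExpr, CCL13 and CCL7, relatives of CCL2 in the same cluster, and CXCL9, a further CXCR3 ligand, were called higher in ADAR+hnRNPC on day 5 (adjusted p = 5.7e-06, 0.0017 and 0.00043), and CCL13 with IFN-alpha (adjusted p = 0.030). CCL20, which draws cells with CCR6, rose in ADAR+hnRNPC by 3.83 ± 0.40 (adjusted p = 7.9e-11).

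Genes of the interferon route and of the NF-kB route, both of which feed chemokine promoters, were listed separately. Of 12 tested genes of the interferon route, 7 rose and none fell in ADAR+hnRNPC on day 5, with a median log2 fold change of 2.68, against -0.04 over all genes. They included the RNA sensors DDX58 (5.52 ± 0.15) and IFIH1 (4.46 ± 0.12) and the transcription factor IRF7 (5.33 ± 0.21). IRF1, a further factor named after its values were seen, was at 3.02 ± 0.11. With IFN-alpha 6 of the 12 rose, with a median of 1.14 against 0.02 over all genes, among them IRF7 (3.75 ± 0.19), while IRF1 was at 0.55 ± 0.11, below the fold threshold. Of 9 tested genes of the NF-kB route, 7 rose in ADAR+hnRNPC, with a median of 2.51, among them the cytokine IL1B (4.12 ± 0.32), the subunit RELB (3.56 ± 0.18) and the inhibitor TNFAIP3 (3.43 ± 0.16). With IFN-alpha none of the 9 was called, with a median of 0.30, although edgeR gave TNFAIP3 0.60 ± 0.15 (adjusted p = 0.0039), named after its values were seen and below the fold threshold. In hnRNPC cells of day 5, 1 of 12 genes of the interferon route rose, IRF7, and 2 of 9 of the NF-kB route, IL1B and NFKB2.

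Chemokine mRNA is also controlled by decay through AU-rich elements. Of 6 tested genes of that route, ZC3H12A, an RNase that cleaves inflammatory mRNA, rose by 1.32 ± 0.10 and ZFP36, which binds AU-rich elements, by 1.05 ± 0.19 in ADAR+hnRNPC on day 5 (adjusted p = 2.2e-14 and 5.6e-06), and the other 4 were not called. None of the 6 was called with IFN-alpha. Of 5 tested genes of protein processing and presentation, none was called in ADAR+hnRNPC on day 5. In total RNA of the second study, 6 of 12 genes of the interferon route and 4 of 9 of the NF-kB route rose in ADAR+hnRNPC, with medians of 1.29 and 0.54 against -0.12 over all genes. These lists share the CTRL libraries with the members, and nothing about the members follows from their counts.

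The genes whose mean log2 CPM over the 16 groups of the first study was most like that of each member were found by Pearson's r. For CXCL10 these were CXCL11 (r = 0.99), HFE (0.97) and AARS1 (0.97), for CXCL11 they were CXCL10 (0.99), PCLO (0.96) and BIRC3 (0.96), and for CCL2 they were HIVEP2 (0.99), ATF3 (0.98) and PLA2G4C (0.98). Group means of 1 study share libraries and controls, and a single group with extreme values weighs heavily. Without ADAR+hnRNPC on day 5, over 15 groups, CXCL11 was still the gene most like CXCL10 (0.97), with HFE at 0.94, and those most like CCL2 were MLX (0.96), HIVEP2 (0.96) and PDE1B (0.96).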

How the data were processed

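RNA-seq libraries were made by the authors from rRNA-depleted RNA with a stranded kit. Reads were aligned with STAR 2.5.4a to GRCh37 and counted with featureCounts on GENCODE v19 exons, uniquely mapped reads only; the strand setting is not given in the sources used here. The deposited values used here are raw counts per gene, per intron, per editing site and per editing-cluster-rich region, with no normalisation.

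Each study was fitted separately in R 4.3.3 with edgeR 4.0.16 (quasi-likelihood, TMM), with 1 coefficient per group and all 48 or 18 libraries. The interaction of each day of the first study used the libraries of its 4 groups. Genes with an average log2 CPM of at least 0.5 were tested (13187 and 13637), p-values were Benjamini-Hochberg adjusted over them, and a call required an adjusted p of at most 0.05 and, except for interactions and differences of responses, a log2 fold change of 1 or more in size. Errors are SD for levels and SE for fold changes. edgeR's test gives no SE, so it was taken as the absolute log2 fold change divided by the square root of the F statistic. This SE is not reliable where a group held few or no reads. CCL8 and other low genes were tested with filterByExpr. DESeq2 1.42.0 and limma 3.58.1 (voom) served as alternatives, beside other scaling, filters, controls, the replicate block and leaving out each library. The fit was tested on simulated data. Bounds use a floor of 3 reads per group and counting intervals are exact at 95%; both cover counting error only. No pair of 57 pairs of libraries of a group was identical.

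Libraries held a median of 120 M and 60.7 M gene-assigned reads. Same-numbered libraries deviated together (every r above 0.1) in 37 of 120 pairs of groups in the first study and 22 of 36 in the second; for CTRL and ADAR+hnRNPC of day 3 r was 0.456 to 0.748. The 7 genes and the gene lists were chosen with earlier results of these data known. From each list up to 3 called genes with the largest absolute fold change in a comparison were named, and the receptors of the members, other than genes not reported here. Gene counts of CCL3, CCL4 and CCL5 and the intron counts of the second study were not analysed here. Symbols matched 132 of 139 list genes.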

Additional observations from a re-analysis of the deposited data

Results flagged for a closer look

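The CCL2 response to hnRNPC targeting differed between days: the day 5 log2 response over CTRL exceeded that of day 3 by 3.22 ± 0.62 (SE, edgeR adjusted p = 6.5e-05), with CCL2 higher than CTRL in 3 of 3 hnRNPC libraries of day 5. Of all genes, 24.1% passed this test in the same direction and 31.3% lay higher without overlap on day 5. The CCL2 response to ADAR+hnRNPC exceeded that of day 3 by 6.75 ± 0.65 (adjusted p = 4.1e-11), again in 3 of 3 libraries of day 5, with 26.5% and 36.3% of all genes. For CXCL10 the ADAR+hnRNPC response was larger on day 5 than on day 3 by 9.55 ± 3.17 (adjusted p = 0.010). This last value rests on 5 CXCL10 reads in replicate 1 of CTRL on day 3. Without that library CTRL held no CXCL10 read on day 3 and the value was 5.60 (SE 142, adjusted p = 0.98). Each was picked out because the difference of the responses itself passed the test. No single group of 4 or more libraries exists in which an outlying library could be tested.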

How the results depend on the processing

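Over all alternatives 2380 values of CXCL10, CXCL11, CCL2 and, where tested, CCL8 were recomputed: 2218 kept their side of the call and their direction, 80 changed sign without a call in either setting, 45 calls were lost, 37 were gained and 0 reversed. Among calls over the members, 13 were made for gRNA groups against CTRL in the first study, 3 for IFN-alpha, 19 for ADAR+hnRNPC against single targeting and IFN-alpha, 9 for change with time, 3 for interactions, 17 for gRNA groups in the second study and 2 for fractions. Without a filter on low values the calls for change with time rose to 16. Leaving out each library gave 11 to 14, 3 to 3, 18 to 19, 8 to 9, 3 to 3, 14 to 19 and 1 to 5 calls in the same order. With the replicate block the counts were 14, 3, 19, 9, 3, 18 and 2, and the pairing changed no other member call than CXCL10 in ADAR+hnRNPC on day 3 and CXCL11 in cytosolic ADAR+hnRNPC over ADAR.

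CCL2 with IFN-alpha was not called with limma-voom (adjusted p = 0.055). CXCL11 in ADAR on day 4 and in ADAR+hnRNPC on day 3 was not called against GFP (adjusted p = 0.055 and 0.23). Over all genes, the block moved calls from 9 to 18 for ADAR on day 4, from 611 to 3245 for the interaction on day 4 and from 25 to 51 for cytosolic ADAR+hnRNPC over ADAR. DESeq2 gave 1717 and 57 for the last pair, and the fit of only the groups compared gave 2 for ADAR on day 4 and 0 in place of 3142 for the interaction in total RNA. Between GFP and CTRL on day 5, limma-voom called 11 genes in place of 28. The largest shift of the median log2 fold change of all genes was 0.0926 with RLE scaling and 0.249 with DESeq2. The split of higher and lower calls moved by over 10 percentage points with DESeq2 for hnRNPC on day 3 (73 and 64 to 91 and 50), ADAR in total RNA (278 and 123 to 223 and 187), cytosolic hnRNPC (34 and 31 to 52 and 22), ADAR+hnRNPC over ADAR in total RNA (229 and 47 to 387 and 9) and hnRNPC cytosolic over nuclear RNA (2119 and 2034 to 1011 and 2544), and with RLE for the total-RNA interaction (973 and 2169 to 1183 and 1699). The causes were not tested. With the interval at the end of CCL3, an alternative chosen after seeing the data, its mean intron level in ADAR+hnRNPC of day 5 was 3.20 in place of 2.17 RPM, and in the other 15 groups it moved by less than 1 SD. Depth limits CXCL11 and CCL8 most, for which CTRL groups held from 0 to 16 reads in the first study.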

Other observations

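The ratio of exon to intron density in ADAR+hnRNPC cells of day 5 was 20.7 for CXCL10, 146 for CXCL11, 36.3 for CCL2 and 27.5 for CCL8. The CCL2 ratio takes its exon length from the principal transcript and is uncertain, because the exon length used in counting was not checked. In total RNA of the second study CXCL10 exceeded CXCL11 per kilobase by 4.89 to 6.35 times in ADAR and by 6.68 to 8.37 times in ADAR+hnRNPC libraries, whereas in CTRL the ratio was 0.533 to 1.30. In that study CXCL9, CCL17 and CCL20 were called higher in ADAR+hnRNPC total RNA with edgeR's filterByExpr (adjusted p = 0.0020, 0.0012 and 2.8e-05), and also in ADAR (adjusted p = 0.028, 0.016 and 0.00027).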
